A study of Mus musculus with 2 samples.

Results

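Collagen chain genes are the genes named Col, a type number, the letter a and a chain number, and 44 of the 31053 genes counted in this series carry such a name. They were followed as raw unique molecular identifiers (UMIs, 1 for each captured messenger RNA molecule) across the cells of the colonic lamina propria, the connective tissue under the gut lining. Of the 44 genes, 42 had at least 1 UMI in the cells kept, and Col9a1 and Col6a6 had none. In gated fibroblasts 35 had a UMI and 21 had at least 50, the number required here to call a gene measured. The 42 genes held 61376 UMIs, of which 54029 (88.03%) lay in 293 fibroblasts, which were 3.45% of the 8500 cells.

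Both libraries came from male C57BL/6 mice aged 6 to 8 weeks, kept free of specific pathogens, and were made with a droplet kit that reads the 3′ end of transcripts. The wild-type-labelled library came from mice labelled wild type. The deficient-labelled library came from mice labelled deficient in the long noncoding RNA lncly6c (1700016P04Rik), the whole gene having been deleted in zygotes by CRISPR-Cas9 on a C57BL/6J background, and the study asks about macrophage differentiation. Each genotype was 1 library and the number of mice in it was not given, so no test was possible. Where 2 values are given side by side for the libraries, the wild-type-labelled one stands first. Every interval below covers counting error only, at the 95% level, and a difference between the libraries cannot be told apart from a difference between 2 preparations. In the names of the deposited files the genotype words stand the other way round, and the deleted gene had 0 UMIs in both libraries, so the labels were not checked by it. If the file names were right, each direction between libraries given here would turn.

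A collagen molecule is built from chains wound into a triple helix, and each type uses its own chains. The fibrillar types I, III and V bear load, type IV forms the sheet of the basement membrane, and type VI forms beaded filaments around cells. Chains of the FACIT class (fibril-associated collagens with interrupted triple helices) sit on fibrils, and types XV and XVIII carry glycan chains at the edge of basement membranes. In the gut wall these chains are classically made by fibroblasts, smooth muscle cells, pericytes and endothelial cells.

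The upstream sequences of 5 members are shown because their RNA patterns differ most plainly below: Col1a2 and Col3a1 for the abundant fibrillar chains, Col4a1 and Col4a2 for a pair with neighbouring starts, and Col27a1 for a chain also found in immune clusters. Each runs from 250 bases before to 50 bases after the start in RefSeq (GRCm38.p6), 5′ to 3′ on the gene's strand. Capitals mark each match to CCAAT (the CCAAT box), to TATAA (the core of the TATA box) or to GGGCGG (the GC box) on either strand, so a match may be printed as its reverse complement. The windows are chr6:4505368-4505667 (plus) for Col1a2, chr1:45311288-45311587 (plus) for Col3a1, chr8:11312777-11313076 (minus) for Col4a1, chr8:11312555-11312854 (plus) for Col4a2 and chr4:63215162-63215461 (plus) for Col27a1.
Col1a2: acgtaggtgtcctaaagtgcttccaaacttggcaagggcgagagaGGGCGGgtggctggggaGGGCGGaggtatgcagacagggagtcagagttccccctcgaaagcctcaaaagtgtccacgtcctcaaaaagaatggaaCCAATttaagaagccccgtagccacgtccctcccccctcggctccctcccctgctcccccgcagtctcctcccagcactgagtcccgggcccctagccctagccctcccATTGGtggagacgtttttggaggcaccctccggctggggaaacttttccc
Col3a1: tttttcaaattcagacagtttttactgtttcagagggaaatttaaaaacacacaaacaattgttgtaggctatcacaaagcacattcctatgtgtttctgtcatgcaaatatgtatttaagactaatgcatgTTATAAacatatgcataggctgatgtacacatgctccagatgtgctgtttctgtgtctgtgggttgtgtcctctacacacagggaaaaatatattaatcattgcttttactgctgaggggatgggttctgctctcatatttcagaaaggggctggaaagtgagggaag
Col4a1: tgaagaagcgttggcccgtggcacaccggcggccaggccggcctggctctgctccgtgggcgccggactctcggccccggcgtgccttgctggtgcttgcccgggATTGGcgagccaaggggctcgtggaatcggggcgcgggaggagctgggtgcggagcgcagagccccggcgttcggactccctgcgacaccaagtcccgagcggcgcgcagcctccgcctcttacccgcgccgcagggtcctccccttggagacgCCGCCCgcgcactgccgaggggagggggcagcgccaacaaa
Col4a2: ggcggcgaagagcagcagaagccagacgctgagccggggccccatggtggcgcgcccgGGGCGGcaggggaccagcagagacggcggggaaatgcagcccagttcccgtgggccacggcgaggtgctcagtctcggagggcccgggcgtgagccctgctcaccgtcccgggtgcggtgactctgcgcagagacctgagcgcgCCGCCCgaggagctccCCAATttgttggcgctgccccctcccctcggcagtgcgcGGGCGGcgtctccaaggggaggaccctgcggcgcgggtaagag
Col27a1: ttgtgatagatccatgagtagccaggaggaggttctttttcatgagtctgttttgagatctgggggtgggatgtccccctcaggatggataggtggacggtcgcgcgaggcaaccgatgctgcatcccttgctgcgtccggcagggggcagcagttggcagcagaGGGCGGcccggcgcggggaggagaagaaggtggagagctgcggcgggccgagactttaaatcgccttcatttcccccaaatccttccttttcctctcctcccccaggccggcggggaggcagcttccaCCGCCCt

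Col1a2 held 2 CCAAT and 2 GGGCGG matches, and Col3a1 held 1 TTATAA stretch, which reads TATAA on both strands, and neither of the other motifs. The Col3a1 window was 37.7% G and C, against 61.0% in Col1a2, 74.0% in Col4a1, 73.7% in Col4a2 and 61.7% in Col27a1. Col4a1 and Col4a2 lie head to head on chromosome 8: their annotated transcripts overlap by 22 bases and their windows share the 78 bases from 11312777 to 11312854. Windows were found for 35 of the 44 members; Col1a1 was among those without one. GGGCGG was present in 22 of these 35 (62.9%) and in 35.9% of all 27025 windows of this length, CCAAT in 12 (34.3%) against 37.9%, and TATAA in 7 (20%) against 25.5%. The members' windows were also richer in G and C, at a median of 60% against 52.7%. A match is only a run of letters and no binding was measured.

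Fibroblasts were called cell by cell from 8 marker genes that include no collagen (Dcn, Lum, Dpt, Pdgfra, Fbln1, Clec3b, Mfap4 and Cygb), with at least 3 of them detected and together at least 0.1% of the cell's UMIs. The gate took 21 of 2610 wild-type-labelled cells (0.805%, 0.499 to 1.23 by Clopper-Pearson) and 272 of 5890 deficient-labelled cells (4.62%, 4.10 to 5.18). All 8 markers were present in both sets, at a summed 15347 and 15542 CPM (UMIs per 1000000 UMIs of the same cells). The fibroblasts had medians of 10632 and 7665 UMIs per cell, in total 249491 and 2242400. A UMI of Ptprc, the pan-leukocyte gene CD45, was found in 6 of the 21 and 72 of the 272 cells, against 94.1% of immune cells. Among the other gate lists in these cells, smooth muscle or pericyte markers summed to 521.1 and 262.2 CPM (8 and 9 of 9 markers present), epithelial markers to 180.4 and 20.1 CPM (7 and 7 of 8), and endothelial markers to 20.04 and 30.3 CPM (3 and 8 of 8). The glial markers S100b, Sox10, Gfap, Fabp7 and Gfra3 were at 0 in the fibroblasts of both libraries, as were Msln, Wt1, Lrrn4, Upk1b and Gpm6a of mesothelium. Macrophage markers summed to 1383 and 1578 CPM and monocyte markers to 933.9 and 1046. The part of these in the collagen values was not tested.

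Fibrillar chains made up most of the collagen RNA in fibroblasts. Col3a1, the single chain of type III collagen, held 18449 UMIs or 34.2% of fibroblast collagen UMIs. Col1a2 held 8331 UMIs (15.4%) and Col1a1 held 7672 (14.2%); they encode the 2 chains of type I collagen. Together these 3 genes were 63.77% of the collagen UMIs. A 3′ method counts each transcript once whatever its length, so no length correction was made when levels of different genes are set side by side.

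The type I chains were counted in nearly equal numbers. The ratio of Col1a1 to Col1a2 UMIs in fibroblasts was 0.981 (0.898 to 1.07) and 0.913 (0.883 to 0.944). The usual mature protein holds more of the first chain than of the second. The type V chains Col5a1 (1637 UMIs) and Col5a2 (1752), which are built into type I fibrils, were also near equal, at a ratio of 1.10 (0.900 to 1.34) and 0.914 (0.850 to 0.983). Col5a3, a less common type V chain, had 419 UMIs. Col24a1, another fibrillar chain, had only 20, and the cartilage chains Col2a1, Col11a1 and Col11a2 had none in fibroblasts.

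Type VI chains came next. Col6a1 held 2963 and Col6a2 2752 fibroblast UMIs, at a ratio of 0.974 (0.835 to 1.14) and 1.09 (1.03 to 1.15) in the 2 libraries. Col6a3, the large chain that joins them in the classic trimer, was counted at a lower level: 0.540 (0.448 to 0.649) and 0.332 (0.307 to 0.358) UMIs for each UMI of Col6a1. The alternative chains Col6a5 (84 UMIs) and Col6a4 (38) were rare, and Col6a6 was not seen.

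Basement membrane chains were led by the head-to-head pair. Col4a1 held 2141 and Col4a2 1040 fibroblast UMIs, a ratio of 2.46 (1.96 to 3.09) and 2.01 (1.86 to 2.18) by library. In the 3 fibroblast clusters described below the ratio was 2.22 (1.96 to 2.53), 2.004 (1.80 to 2.24) and 1.92 (1.61 to 2.31), and these intervals overlap. In endothelial cells it was 1.39 (0.991 to 1.97) and in immune cells 1.40 (1.14 to 1.71). Col4a5 (308 UMIs) and Col4a6 (80), a second type IV pair on the X chromosome, were lower, and the kidney chains Col4a3 and Col4a4 had 6 and 1 UMIs. Of the basement membrane zone, Col15a1 held 1718 UMIs and Col18a1, from which endostatin is cut, held 589.

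Among fibril-associated chains, Col14a1 (1009 UMIs) and Col12a1 (984) were nearly equal and Col16a1 (368) was lower. Col8a1, a short network-forming chain of vessel walls, had 202 UMIs. Col27a1, a fibrillar chain best known from cartilage, had 352, and these were only 12.2% of its UMIs. By comparison, 94.9% of Col3a1, 95.1% of Col1a2, 96.4% of Col1a1, 82.4% of Col4a1 and 75.9% of Col4a2 UMIs lay in fibroblasts. The other 14 members seen in fibroblasts had 1 to 38 UMIs each there.

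**Figure D1:**
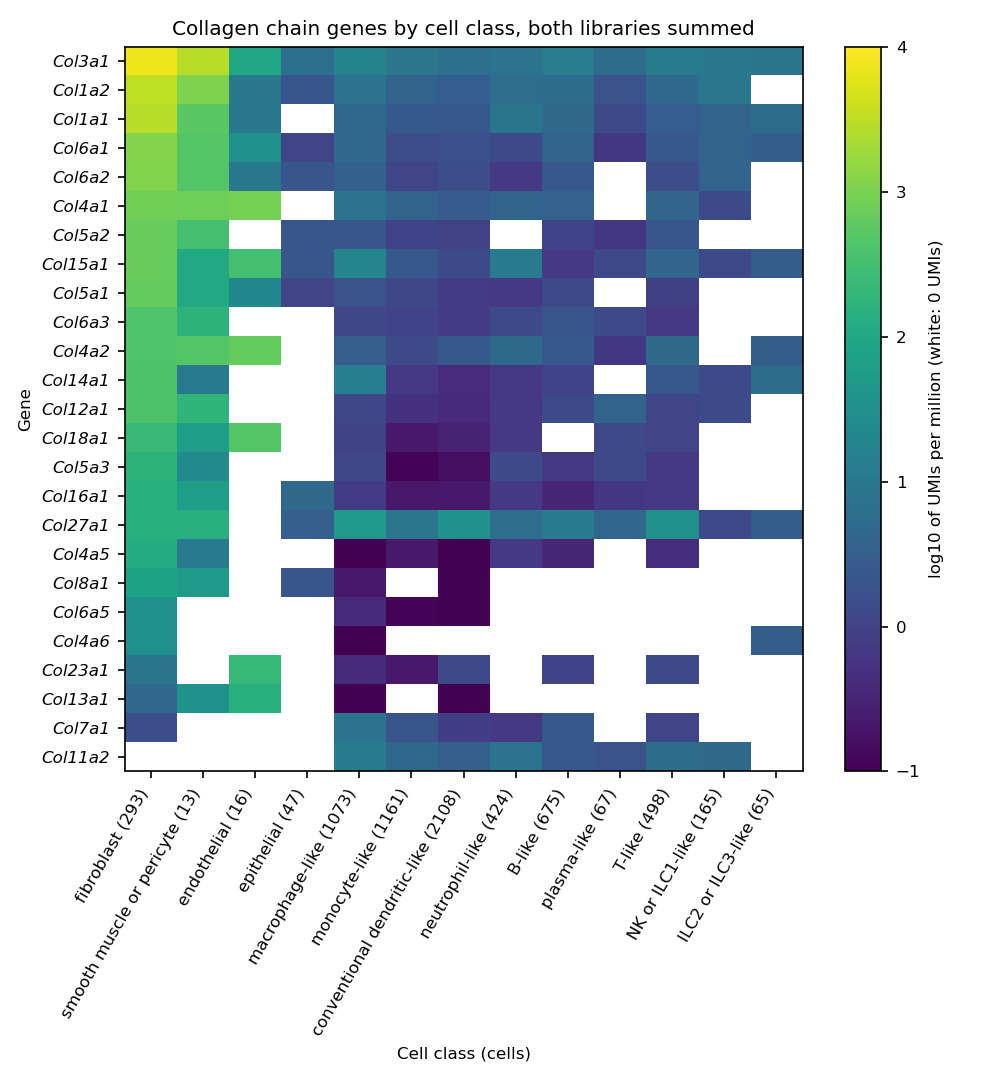
Level of collagen chain genes (rows; the 21 measured in fibroblasts and 4 named after their values were seen) in 13 cell classes (columns, with the number of cells), as the log10 of CPM summed over both libraries, where white marks 0 UMIs. The fibroblast column is the brightest for most rows; Col4a1, Col4a2 and Col18a1 are also high in the 16 endothelial cells, and Col27a1 and Col11a2 stand out among the immune columns.

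Other stromal cells were few. The 16 gated endothelial cells, 15 of them deficient-labelled, carried the vessel basement membrane chains: Col4a1 at 912 CPM (exact Poisson interval 728 to 1128), Col4a2 at 654.5 (500.6 to 840.7), Col18a1 at 461 (334 to 621) and Col15a1 at 322 (217 to 460). Their Col4a1 interval took in the fibroblast level of 859 CPM over both libraries, while their Col3a1 was 96.6 CPM (44.2 to 183) from 9 UMIs. The membrane-spanning chains Col23a1 (21 UMIs, 225 CPM, 140 to 344) and Col13a1 (13 UMIs, 139.5 CPM, 74.3 to 239) were higher in endothelial cells than in fibroblasts, where they were at 8.83 and 4.41 CPM. Each came from 4 of the 16 cells, and 1 cell held 13 of the Col23a1 UMIs. The single wild-type-labelled endothelial cell held 21 of the 85 Col4a1 UMIs and none of Col18a1.

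The 13 smooth muscle or pericyte cells showed another profile, with Col3a1 at 2880 CPM (2523 to 3272), Col1a2 at 1103 (887 to 1356) and Col4a1 at 796.5 (615 to 1015). All 235 Col3a1 UMIs came from 10 of the 11 deficient-labelled cells; the 2 wild-type-labelled cells had none. The ratio of Col3a1 to Col1a1 there was 5.60 (4.02 to 7.97), against 2.41 (2.34 to 2.47) in fibroblasts. The 47 epithelial cells held 27 collagen UMIs in all, 0.00295% of their UMIs, against 2.17% in fibroblasts.

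Most measured collagen genes were far higher in fibroblasts than in immune cells. Immune cells here are the 1727 and 4509 cells of clusters that immune markers named, with collagen genes left out of the clustering. Of 25 members with at least 50 UMIs in both kinds of cell together, 20 were at least 10-fold higher in fibroblasts over both libraries, against 9.07% of the 12610 genes so measured. In the wild-type-labelled library alone it was 16 of 18 members against 3.84% of genes, and in the deficient-labelled library 21 of 24 against 8.71%. The 5 members below 10-fold over both libraries were Col27a1, Col23a1, Col7a1, Col11a2 and Col9a3, named after their values were seen.

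The 293 fibroblasts fell mostly into 3 clusters, which held 284 of them. Of the wild-type-labelled ones outside, 1 each lay in monocyte-like cluster 1, macrophage-like cluster 5 and epithelial cluster 26. The deficient-labelled ones outside lay in clusters 0 (1 cell), 5 (3), 9 (1) and 25 (1). Cluster 18 (133 cells, 8 wild-type-labelled and 125 deficient-labelled) was led by Mgp, Eln, Dcn, Lum and Clec3b. Cluster 20 (112 cells, 5 and 107) was led by Tnc, Adamdec1 and Sfrp1. Cluster 27 (39 cells, 5 and 34) was led by Ogn, Tagln, Acta2, Myh11 and Pdgfra and keeps no name, because muscle genes lead it beside fibroblast genes. It held 48 cells in all (5 and 43), over which its leading genes were found. The others fell to gates other than that of fibroblasts, and the collagen levels of cluster 27 below are of its gated fibroblasts only.

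With both libraries summed, total collagen was lowest in cluster 18, at 1.86% of UMIs (1.84 to 1.89), then 2.53% (2.49 to 2.57) in cluster 20 and 2.89% (2.84 to 2.94) in cluster 27. That order held in the deficient-labelled library (1.77%, 2.52% and 2.69%) but not in the other, where cluster 20 was lowest at 2.60% (2.46 to 2.75) and cluster 18 was at 3.01% (2.90 to 3.12). Of the 21 measured members summed over libraries, 18 were lowest in cluster 18, 10 were highest in cluster 20 and 9 were highest in cluster 27. Only Col8a1 and Col14a1 were highest in cluster 18. Taken by library, 17 were lowest in cluster 18 with the deficient label and 10 with the wild-type label, where Col3a1, Col1a1, Col1a2, Col5a1, Col5a3, Col4a5 and Col16a1 were lowest in cluster 20 instead. The wild-type-labelled values rest on 8, 5 and 5 cells.

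Single members marked each cluster much more sharply than the total. Col8a1 was at 144 CPM (124 to 167) in cluster 18 and 15.6 (8.07 to 27.3) in cluster 20, a 9.23-fold gap (5.15 to 18.2). Col14a1, which decorates fibrils, followed the same side: 537 CPM in cluster 18, 355.5 in cluster 20 and 161 in cluster 27, 3.34-fold (2.57 to 4.41) from highest to lowest. Col6a5 ran the other way, with 66 of its 84 UMIs in cluster 20, where it was at 85.9 CPM against 10.7 in cluster 18, 8.07-fold (4.41 to 15.95). Taken by library, Col8a1 was at 414 and 121 CPM in cluster 18 and at 85.8 and 11.1 in cluster 20, and Col14a1 at 725 and 520 in cluster 18 and 66.0 and 178 in cluster 27, and the order within each of these pairs of clusters was the same in both libraries. With the wild-type label Col6a5 had 8 UMIs from 2 of the 21 cells, 5 in cluster 20, 3 in cluster 27 and 0 in cluster 18. No order of clusters is read from these 2 cells.

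Cluster 20 also led for Col12a1, at 678 CPM against 240.0 in cluster 18 (2.83-fold, 2.45 to 3.27), and for Col27a1, at 243.5 against 67.2 (3.63-fold, 2.78 to 4.76). Col15a1 was highest there too, at 960 CPM, and lowest in cluster 27, at 352 (2.72-fold, 2.27 to 3.29). The pair Col4a1 and Col4a2 stood at 1281 and 639 CPM in cluster 20, 922 and 479 in cluster 27, and 641 and 288 in cluster 18. These 5 members were highest in cluster 20 in each library, but with the wild-type label cluster 27 was close for all but Col15a1. There cluster 20 and cluster 27 stood at 150 and 148.5 CPM for Col27a1 (7 and 9 UMIs) and at 1458 and 1435 for Col4a1. Col4a2 was at 622 and 561 CPM (29 and 34 UMIs) and Col12a1 at 557.5 and 495 (26 and 30 UMIs). Col16a1 and Col18a1 were highest there only in the summed and the deficient-labelled values; with the wild-type label both were highest in cluster 27.

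Cluster 27 was highest for Col3a1, Col1a1, Col1a2 and Col5a1 of the fibrillar chains and for Col6a1, Col6a2 and Col6a3 of type VI. By library this held in both for all but Col1a1 and Col6a3, which were highest in cluster 20 with the deficient label. Col5a1 was nearly level with that label, at 784 CPM in cluster 27 and 782 in cluster 20. Col3a1 reached 11066 CPM there, against 7198 in cluster 20 and 6873 in cluster 18, a 1.61-fold span (1.55 to 1.67); with the wild-type label it was at 15210, 6733 and 11774 CPM in the same order of clusters, and with the deficient label at 10293, 7228 and 6452. Col6a3 was at 759, 657.5 and 196 CPM in the same order, 3.88-fold (3.26 to 4.62) from cluster 27 to cluster 18. Col4a5 was highest in cluster 27, at 319 CPM (265 to 380) against 91.1 (71.1 to 115) and 87.7 (71.8 to 106). Col24a1 had 17 of its 20 fibroblast UMIs there and none in cluster 20. The interval of the gap from highest to lowest cluster reached 1 only for Col4a6, at 1.85-fold (0.956 to 3.49).

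**Figure D2:**
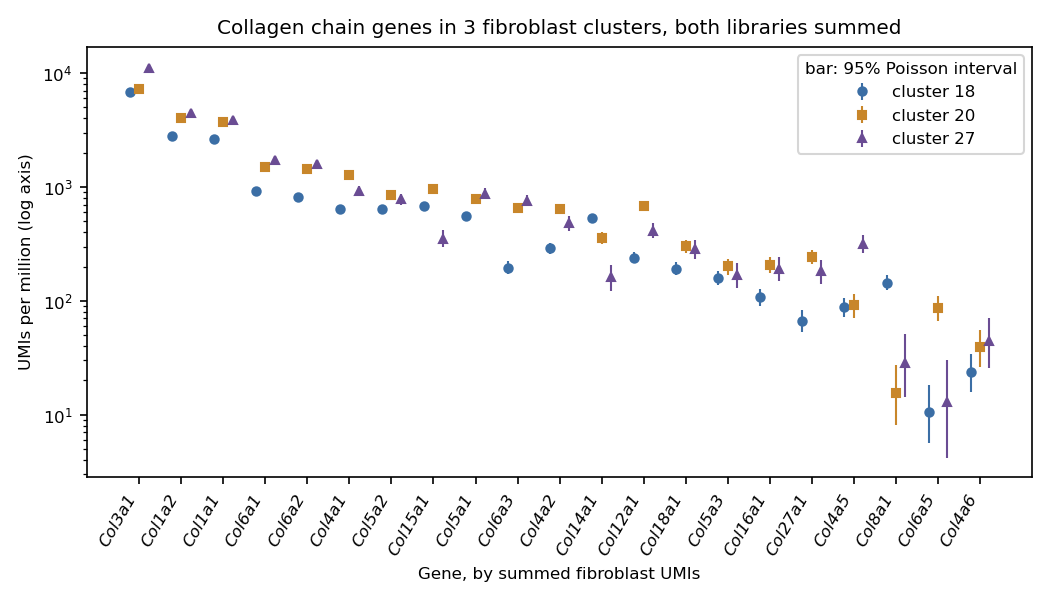
Level in CPM (log axis) of the 21 measured members in fibroblast clusters 18, 20 and 27, both libraries summed, with 95% Poisson intervals. Cluster 18 is the lowest for 18 members in these sums, though for 10 in the wild-type-labelled library alone; Col8a1 and Col14a1 are highest there, Col6a5 stands apart in cluster 20 and Col4a5 in cluster 27.

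The comparison of the libraries asks whether fibroblast collagen RNA differed between the genotype labels. Collagen was 2.78% of fibroblast UMIs (2.71 to 2.84) against 2.10% (2.08 to 2.12), a log2 ratio of -0.40 (-0.44 to -0.36), with the deficient-labelled library over the other as in every ratio here. Single cells overlapped widely: the collagen share ran from 0.188% over a median of 2.73% to 6.54% in the 21 cells, and from 0% over 2.24% to 5.35% in the 272. A median of 16 members was detected per cell in both libraries, or 9 and 8 after each cell was thinned to 1000 UMIs. Within clusters the gap was uneven, with log2 ratios of -0.77 in cluster 18, -0.05 in cluster 20 and -0.55 in cluster 27, and it was -0.20 once the cells with the highest doublet scores were removed. With fibroblasts taken by cluster instead of by gate (19 and 277 cells, 12 of them not gated as fibroblasts), the shares were 3.19% and 2.13%, a log2 ratio of -0.58.

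By gene, 15 of the 21 measured members were lower in the deficient-labelled library and 6 were higher. The median log2 ratio of the 21 was -0.24, against 0.01 for 6693 genes with at least 50 fibroblast UMIs and a UMI in each library. For 12 members the counting interval lay wholly below 0, against 6.51% of 6710 genes, and for 1, Col12a1, wholly above, against 6.41%. An interval excludes 0 more readily for a gene with more UMIs, and members and background were not matched for depth. Col3a1 held 18449 fibroblast UMIs, while the background takes every gene from 50. Past 1.5-fold, 0 of 21 members were higher in the deficient-labelled library, where 16.9% of genes were, and 3 were lower (Col6a3, Col4a5 and Col8a1), where 9.96% of genes were. That last share, 3 of 21, is near the background. Genes near 50 UMIs pass the fold more readily by counting error, and these shares were not matched for depth either.

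The abundant fibrillar chains were modestly lower. Col3a1, the gene ENSMUSG00000026043 at chr1:45311538-45349706 (mm10, plus strand), was at 10249 and 7087 CPM (log2 ratio -0.53, -0.59 to -0.47). Col1a1 was at 3980 and 2979 CPM (-0.42, -0.51 to -0.32) and Col1a2 at 4056 and 3264 (-0.31, -0.41 to -0.22). All 3 were detected in 95.2% or more of the fibroblasts of each library. Over 9 ways of choosing and scaling the cells they stayed below 0: Col3a1 from -0.69 to -0.33, Col1a1 from -0.63 to -0.21 and Col1a2 from -0.49 to -0.12. In the cells of cluster 20 alone they were at 0.10 (-0.06 to 0.27), -0.09 (-0.31 to 0.13) and -0.06 (-0.27 to 0.15), each interval including 0.

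The members past 1.5-fold rested on few wild-type-labelled cells. Col6a3 was at 725.5 and 389 CPM (-0.90, -1.13 to -0.66), and 57.5% of its 181 wild-type-labelled UMIs came from 3 of the 21 cells. Col4a5 was at 224.5 and 112 CPM (-1.0, -1.42 to -0.55), with 78.6% of its 56 UMIs in 3 cells and 39 of the 56 in cluster 27. Col8a1 was at 188 and 69.1 CPM (-1.45, -1.93 to -0.94), and 1 cell held 20 of its 47 UMIs. Without the fibroblasts that carried a Ptprc UMI its ratio was -0.50 (-1.20 to 0.28). In the deficient-labelled library 3 cells held at most 18.1% of the UMIs of any of these 3 genes.

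The remaining members lay closer together. Col5a1 was at 870 and 633 CPM (-0.46, -0.66 to -0.25), Col4a1 at 1102 and 832 (-0.41, -0.59 to -0.22), and Col6a2 at 1379 and 1074 (-0.36, -0.52 to -0.19). Col6a1 was at 1343 and 1172 CPM (-0.20, -0.36 to -0.03), Col15a1 at 802 and 677 (-0.24, -0.46 to -0.02) and Col5a3 at 236.5 and 160.5 (-0.56, -0.96 to -0.14). For these 6 members the counting interval lay below 0. With the highest doublet scores removed it included 0 for 4 of them: Col6a2 at -0.13 (-0.30 to 0.03), Col6a1 at 0.01, Col15a1 at -0.01 and Col5a3 at -0.39 (-0.80 to 0.03). Col12a1 was higher in the deficient-labelled library, at 317 and 404 CPM (0.35, 0.02 to 0.70). Without Ptprc-positive fibroblasts its ratio was 0.07. The intervals of Col5a2 (794 and 693 CPM), Col4a2 (449 and 414), Col14a1 (421 and 403), Col18a1 (228.5 and 237), Col16a1 (144 and 148), Col27a1 (124 and 143), Col6a5 (32.1 and 33.9) and Col4a6 (24.05 and 33.0) included 0, the widest for Col4a6 (0.46, -0.73 to 1.95). An interval that includes 0 does not show that the libraries were alike.

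**Figure D3:**
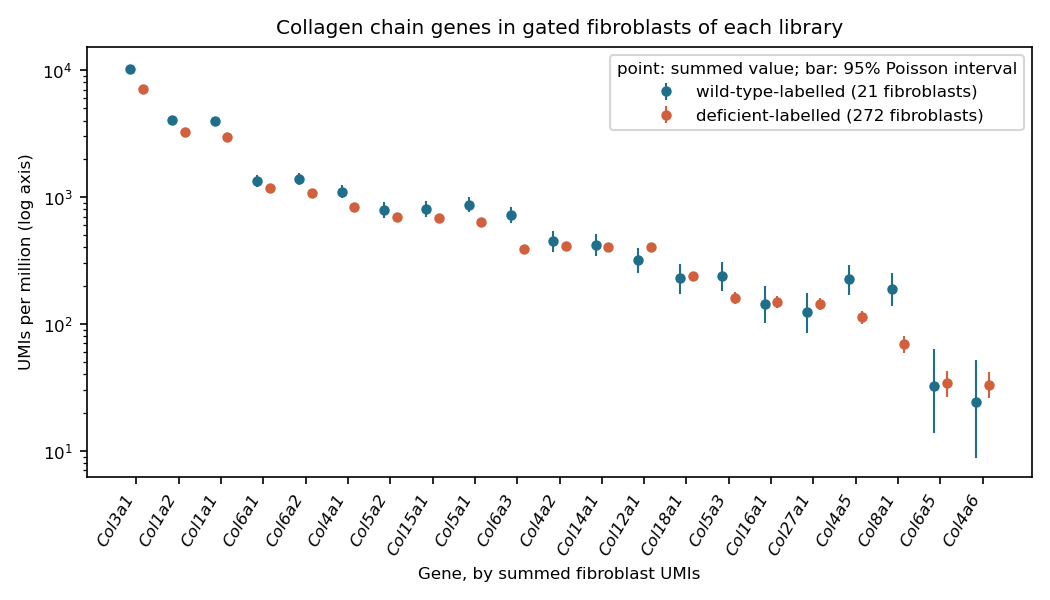
Level in CPM (log axis) of the 21 measured members in gated fibroblasts (21 wild-type-labelled cells, 272 deficient-labelled cells), with 95% Poisson intervals that cover counting error only. The wild-type-labelled point is the higher for 15 members, most widely for Col8a1, Col4a5 and Col6a3.

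The machinery that modifies, exports, crosslinks and breaks down collagen was counted from a list of 46 genes, of which 33 had at least 50 fibroblast UMIs. Of 39 with at least 50 UMIs in fibroblasts and immune cells together, 24 were at least 10-fold higher in fibroblasts, against the 9.07% of genes given above. Serpinh1, the collagen chaperone HSP47, was at 1531 and 1212 CPM in the fibroblasts of the libraries. Pcolce, which speeds propeptide cleavage, was at 381 and 475, Adamts2, which cuts the amino propeptide, at 309 and 311, and Plod2, a lysyl hydroxylase, at 216 and 247. The general folding genes Ppib and P4hb differed less: Ppib was 1.51-fold and P4hb 1.89-fold higher in fibroblasts than in immune cells.

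Past 1.5-fold between libraries, 4 of the 33 were lower with the deficient label, 3 were higher and 26 lay within, beside 9.96% and 16.9% of all genes, with a median log2 ratio of -0.13. Loxl2, a lysyl oxidase that crosslinks chains, was the best measured of the lower ones, at 597 and 329 CPM (-0.86, -1.12 to -0.60), while Loxl1, its relative, was at 357 and 338.5. Of the degrading and receptor genes, Mmp2 was at 766 and 693 CPM, Mmp14 at 505.0 and 448, Ctsk at 196 and 179, and Ddr2, a collagen receptor, at 361 and 302. Mmp13, an interstitial collagenase, was lower in fibroblasts (61.0 CPM over both libraries) than in immune cells (124 CPM), as were the neutrophil collagenase Mmp8 (4.01 and 9.61) and the gelatinase Mmp9 (2.81 and 34.9, or 7 fibroblast UMIs). These 3 were named after their values were seen. By library, Mmp13 in fibroblasts was at 8.02 and 66.9 CPM (3.06, 1.18 to 6.12), 1 of the 3 higher with the deficient label. Mmp13 is also a leading gene of macrophage-like cluster 5, and the part of macrophage RNA in its fibroblast level was not tested.

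The genes nearest in pattern to the 3 most abundant members, over 14 classes of at least 50 cells, were themselves matrix genes in part. For Col3a1 they were Mgp, Serpinh1, Fmo2, Lum and Dnm1 (Pearson r on log2 CPM from 0.996 to 0.998). For Col1a2 they were Ltbp4, Cdc42ep5, Fhl1, Serping1 and Lum, and for Col1a1 Fbn1, Igfbp3, Fhl1, Spon2 and Fzd2. These values describe classes that share libraries and the single split between fibroblasts and the rest; Lum is also a gate marker.

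Collagen UMIs also appeared in immune cells, where a droplet can also hold free RNA. A single source keeps its genes in 1 proportion, so each member's immune level was taken as a percentage of its fibroblast level and set against that of the 8 gate markers summed. For the gate markers this was 0.0584% (0.0496 to 0.0684) and 0.163% (0.153 to 0.173), and no single marker was above 3 times it. Immune cells are ungated, so cells rich in these markers are left out by definition, which can hold this reference low. The reference also stands for fibroblast RNA only. Endothelial cells carried Col4a1, Col4a2 and Col15a1 too, and the part of free RNA from other sources was not tested. Col3a1 was at 0.0378% (0.0294 to 0.0479) and 0.170% (0.156 to 0.185), Col1a1 at 0.0445% and 0.123%, and Col1a2 at 0.0341% and 0.172%. These 3 chains were at or below the gate-marker percentage in the wild-type-labelled library and between 0.123% and 0.172% in the other, so no immune level above that of the gate markers is read from them.

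For most other members the interval reached below 3 times the gate-marker level. It lay wholly above that limit for 6 of 18 members in 1 library and 6 of 24 in the other, whereas 98.8% and 96.4% of all genes did. Col27a1, Col15a1, Col4a2 and Col11a2 passed in both libraries. Col14a1 and Col4a1 passed only in the wild-type-labelled library, at 0.908% and 0.266%; in the other they were at 0.551% (0.443 to 0.678) and 0.485% (0.414 to 0.565), against a limit of 0.489%. Col7a1 and Col23a1 passed in the deficient-labelled library and had too few UMIs to be measured in the other. With B, T and neutrophil cells as the only immune cells, 0 members passed in the wild-type-labelled library and Col27a1 and Col4a2 passed in the other. There T-like cells held 139 Col27a1 UMIs, of which 138 lay in cluster 15, described below.

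**Figure D4:**
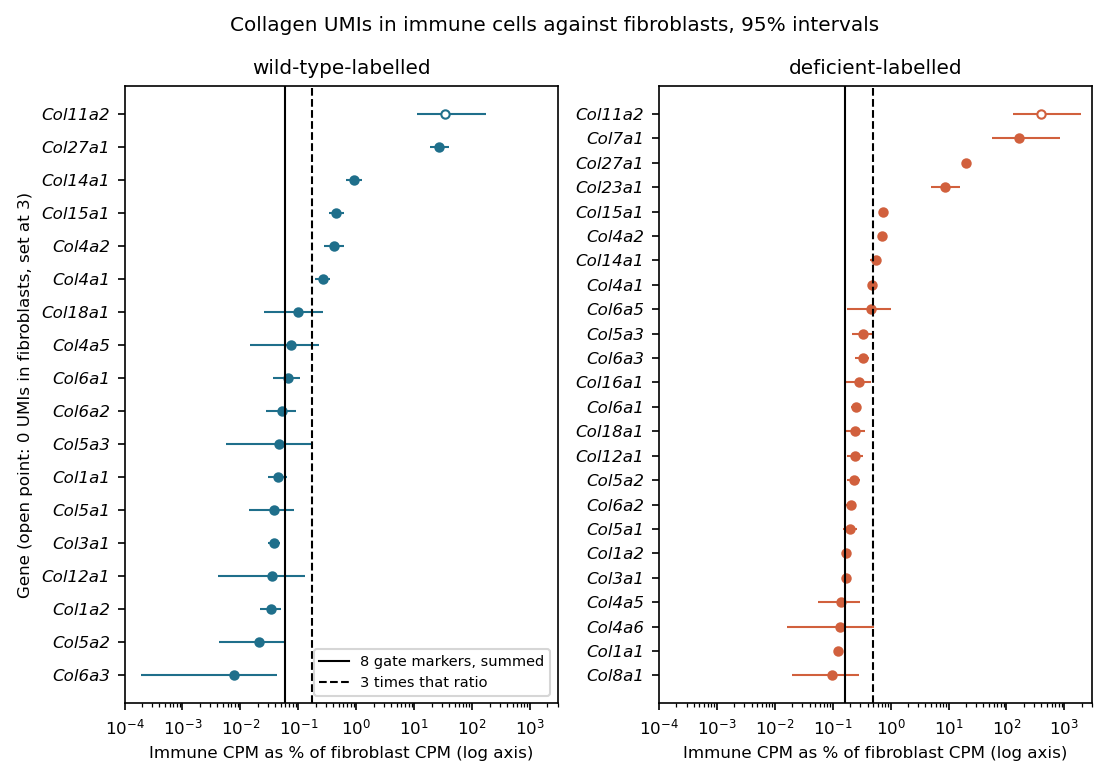
Immune level of each member as a percentage of its fibroblast level (log axis) in each library, with 95% intervals; the solid line is the value of the 8 summed gate markers and the dashed line 3 times it. Col3a1, Col1a1 and Col1a2 lie near the solid line in both panels, and Col27a1, Col15a1 and Col4a2 lie right of the dashed line; open points have 0 fibroblast UMIs and were set at 3.

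Col27a1 was the one collagen gene with more UMIs in immune cells than in fibroblasts among the 21 measured in fibroblasts. It had 598 and 1304 UMIs in immune cells, 33.1 and 29.2 CPM, or 26.6% (18.6 to 39.6) and 20.4% (18.1 to 23.2) of the fibroblast level. By immune class this percentage ran from 0.930% in NK or ILC1-like to 34.1% in macrophage-like cells, while that of the gate markers ran from 0.0749% to 0.297%. Cluster 10, led by Fscn1 and Ccl22, which mark mature dendritic cells, was the highest at 131 CPM (119 to 143), close to the 141 CPM of fibroblasts. The unnamed cluster 4, led by Retnla, Mt2 and Lpl, followed at 77.9 (71.7 to 84.4), and cluster 5, macrophage-like cells with Mmp13 and C1qa, at 56.4 (50.1 to 63.3).

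In contrast, cluster 6, the Xcr1 and Clec9a dendritic cells, was at 4.03 CPM (2.70 to 5.79). Monocyte-like cluster 1 was at 11.3 (8.86 to 14.2). T-like cluster 14 had 0 UMIs in 198 cells (up to 3.52 CPM), and T-like cluster 15 was at 50.9 (42.8 to 59.9). Cluster 15 had a median of 14657 UMIs per cell against 4847 in cluster 14, and 162 of its 175 cells were deficient-labelled; the part of this depth in its Col27a1 was not tested.

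Some of the cells held several Col27a1 molecules. In conventional dendritic-like cells 428 of 2108 had a UMI, 163 had 3 or more and the highest had 17. Of these 163 cells, 13 also had a Col3a1 UMI, 1 of the abundant fibroblast transcripts, as did 44 of all 428. The 2108 cells held 231 Col3a1 UMIs in all. In macrophage-like cells 179 of 1073 had a UMI, 58 had 3 or more, and 11 of the 58 had a Col3a1 UMI, as did 24 of all 179. The part of free RNA in these Col27a1 counts was not tested. The share of cells with a Col27a1 UMI was 20.3% in dendritic-like, 16.7% in macrophage-like and 2.67% in B-like cells, at medians of 14038.5, 7590 and 3646 UMIs. After thinning to 1000 UMIs it was 4.12%, 3.88% and 0.597%, and 11.3% in fibroblasts.

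Between libraries, Col27a1 moved in both directions by cluster. It was lower in the deficient-labelled library in cluster 10, at 185 and 109 CPM (log2 ratio -0.76, -1.03 to -0.49), in cluster 5, at 90.3 and 45.3 (-1.0, -1.34 to -0.64), and in cluster 8, the Inhba and Il10 macrophage-like cells, at 63.4 and 39.5 (-0.68, -1.17 to -0.18). It was higher there in dendritic-like cluster 0, at 32.6 and 44.7 CPM (0.45, 0.17 to 0.74), and in the proliferating cluster 17, at 24.3 and 44.6 (0.87, 0.26 to 1.53). In the unnamed cluster 4, outside the immune cells defined here, Col27a1 was lower with the deficient label, at 90.7 and 71.2 CPM (-0.35, -0.59 to -0.10). Over the immune cells of named clusters the ratio was -0.18 (-0.32 to -0.04).

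**Figure D5:**
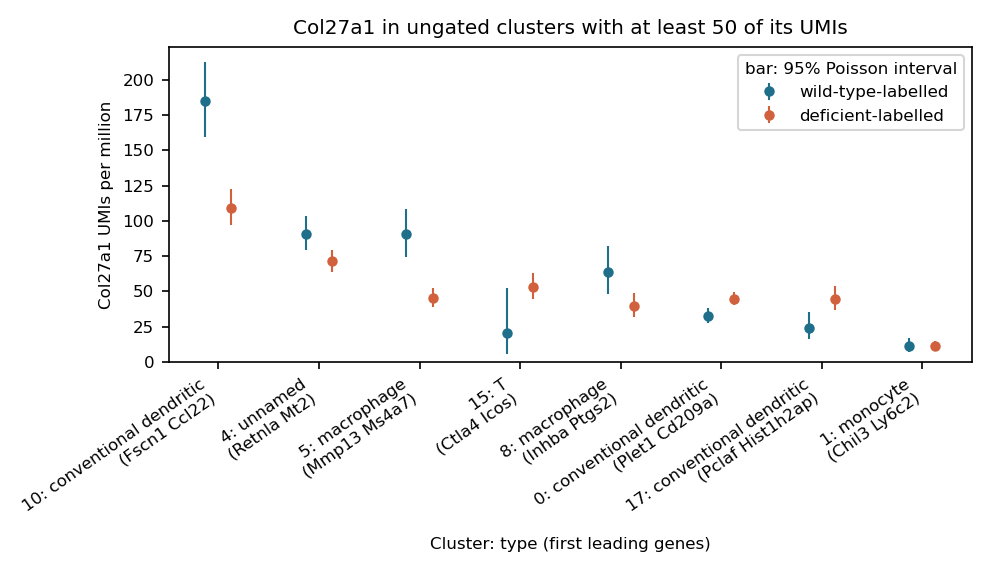
Col27a1 level (CPM) in the 8 ungated clusters with at least 50 of its UMIs, by library, with 95% Poisson intervals. Cluster 10 is highest in both libraries, at 185 and 109; the wild-type-labelled value is the higher in clusters 10, 4, 5 and 8 and the lower in clusters 0, 15, 17 and 1.

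Macrophage-like cells held a second group of chains. Col15a1 was at 19.1 CPM, Col14a1 at 13.6 and Col3a1 at 17.3 in these 1073 cells, whereas in fibroblasts Col3a1 (7404 CPM) far exceeded Col15a1 (689) and Col14a1 (405). As a percentage of the fibroblast level that is 2.77% for Col15a1, 3.36% for Col14a1, 0.234% for Col3a1 and 0.297% for the gate markers. The gate-marker percentage was itself highest in this class; it was 0.0839% in dendritic-like cells and 0.117% in monocyte-like cells.

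Both genes were concentrated in cluster 5, at 23.4 CPM each (19.4 to 28.0, 120 UMIs each). Col14a1 differed between the libraries there, at 45.2 and 16.3 CPM (-1.47, -2.01 to -0.93), and Col15a1 less so, at 26.1 and 22.5 (-0.22, -0.81 to 0.41). Of 93 macrophage-like cells with a Col14a1 UMI, 19 had a Col3a1 UMI, and of 152 with Col15a1, 32 did; 13.7% of all macrophage-like cells had one. Most such cells carried a single molecule: 9 of the 93 and 8 of the 152 had 3 or more. Col15a1 was also at 10.8 CPM in neutrophil-like cells (16 UMIs). Col14a1, Col15a1, Col4a1 and Col4a2 overlap other counted genes on the opposite strand, and the sources used here do not say whether counting used strand.

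Other chains were found outside fibroblasts at low levels. Col11a2, a cartilage fibril chain, had 75 and 233 UMIs in immune cells, 4.15 and 5.22 CPM, and 0 in fibroblasts. With fibroblasts set at a floor of 3 counts, the deficient-labelled immune level was 390.5% of theirs (132 to 1907). For the smaller wild-type-labelled set it was 34.5% (11.4 to 171), which gives no direction. It was highest in macrophage-like clusters 5 (12.5 CPM, 9.62 to 16.0) and 8 (11.5, 8.13 to 15.9) and was lower in dendritic-like clusters 6 (2.64, 1.59 to 4.13) and 11 (1.06, 0.390 to 2.31). Col7a1, the anchoring fibril chain, had 134 immune UMIs against 4 in fibroblasts and was also highest in cluster 5, at 10.5 CPM (7.92 to 13.8). Both were detected mostly as single molecules, with no more than 4 in any immune cell.

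Col23a1 had 41 UMIs in conventional dendritic-like cells (1.27 CPM), spread over 37 cells, in addition to the endothelial ones. Col17a1, the transmembrane collagen of epithelial attachment, had 28 UMIs in all, 12 of them in 1 dendritic-like cell and 7 in 1 cell of the innate lymphoid cluster 30, led by Il22, both cells wild-type-labelled. Col2a1, Col10a1, Col11a1, Col19a1 and Col25a1 had 1 UMI each in all kept cells, and nothing is read from them.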

How the data were processed

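The deposited counts are whole UMI counts per gene and cell barcode in 1 filtered matrix per library. The submitters' processing notes name Cell Ranger, STAR 2.5.1b and the mouse genome mm10, and the matrix headers, per the file headers, name software version 3.0.2. The gene annotation and the strand setting are not given in the sources used here. A barcode was kept where it had 500 UMIs or more, 200 genes or more and no more than 20% of its UMIs from mitochondrial genes: 2610 of 3020 wild-type-labelled and 5890 of 6133 deficient-labelled, with 23384895 and 54773076 UMIs before this filter and medians of 6205 and 7849 UMIs per kept cell. The libraries shared 7 barcode sequences.

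Fibroblasts, smooth muscle or pericyte, endothelial and epithelial cells, glia and mesothelium were gated per cell on marker lists (at least 3 markers and 0.1% of UMIs). All kept cells were clustered with the collagen genes left out (scikit-learn 1.9.0, igraph 0.11.9, leidenalg 0.10.2, 2000 genes, 30 principal components, 15 neighbours, resolution 1), giving 31 clusters, of which 5 stayed unnamed. A cluster was called after a type ("macrophage-like") from at least 3 markers and a marker score of at least 0.3, a threshold set after the data were seen. Summed UMIs became CPM (of all UMIs in the same cells), each with its exact Poisson interval; library ratios have exact conditional binomial intervals (scipy 1.17.1). Cells are not replicates and each group is 1 library, so no p-value was computed. A gene was measured from 50 UMIs, and a level of 0 in 1 group was set at 3 counts so that a ratio could be given. Shares of cells were also taken after thinning to 1000 UMIs, which left out 683 shallower cells, 100 of them immune and 0 fibroblasts. No doublets were removed in the values of the report, and the doublet scores of the alternative setting came from scanpy 1.11.5. Intervals cover counting error only, and promoter sequences and motif counts come from RefSeq.

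The members, the marker and pathway lists and the comparisons were chosen with earlier results of these data known. Members named with values are those with at least 50 fibroblast UMIs, or with at least 50 UMIs in another class at a level above that of fibroblasts; rarer members that are named (Col13a1, Col17a1, Col23a1, Col24a1 and Col9a3 among them) were chosen after their values were seen. Of the pathway list the 12 with the highest fibroblast level are named. The 5 genes nearest a member were ranked by Pearson r of log2(CPM + 10) over classes of at least 50 cells. Alternatives changed the gate, the mitochondrial limit, the Ptprc-positive cells, the doublets, the scaling, the UMI minimum, the fold and the immune classes.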

Additional observations from a re-analysis of the deposited data

How the results depend on the processing

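No paired analysis was possible because each group is 1 library, and no replicate could be left out. The 88 summary values came from 12 alternative settings and 3 added after seeing the data (each fibroblast cluster alone). Of these values 54 stayed close to those reported and 34 moved, and the cause was not tested. Among the summary results only the collagen log2 ratio has a direction. It stayed below 0, from -0.77 to -0.05, and its interval included 0 in cluster 20 alone (-0.13 to 0.04). Of 245 values for single members 27, from 13 members, took the other sign. For 1 of the 27 the interval excluded 0 (Col14a1 without Ptprc-positive cells, 0.45, 0.06 to 0.87), and 1 was of a member past 1.5-fold (Col4a5 in cluster 20 alone, 1.14, -0.77 to 4.21, from 2 wild-type-labelled UMIs). Col5a3 was at 0.67 in cluster 20 and Col12a1 at -0.31 in cluster 27. The collagen share of wild-type-labelled fibroblasts became 3.454% without Ptprc-positive cells, 3.19% with fibroblasts taken by cluster, and 3.01%, 2.605% and 3.946% in clusters 18, 20 and 27. That of deficient-labelled fibroblasts became 2.485% without Ptprc-positive cells, 2.134% by cluster, 2.422% with the highest doublet scores removed, and 1.766%, 2.524% and 2.69% in the 3 clusters. The log2 ratio of the share was -0.48 without Ptprc-positive cells, -0.58 by cluster, -0.20 with the highest doublet scores removed, -0.27 as a mean over cells, and -0.77, -0.05 and -0.55 in the 3 clusters. Removing these scores took 0 of the 21 and 35 of the 272 fibroblasts. The count of members over 1.5-fold higher in the deficient-labelled library was 1 under the strict gate, without Ptprc-positive cells, by cluster, with doublet scores removed, as a mean over cells, with at least 20 UMIs and in cluster 27, and 3 in cluster 20. The count lower was 5 without Ptprc-positive cells, 8 by cluster, 1 at 2-fold, and 10, 0 and 6 in the 3 clusters. With B, T and neutrophil classes as the only immune cells, 0 and 2 members lay above the gate-marker limit. Depth limits the wild-type-labelled stroma: 249491 UMIs in 21 fibroblasts, 26979 in 2 smooth muscle or pericyte cells and 6706 in 1 endothelial cell. In those 21 fibroblasts the interval of a count of 0 reaches 14.8 CPM.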

Other observations

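The 653 barcodes left out by the filters held 303 of the 61679 collagen UMIs in the deposited matrices.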
